A study of Mus musculus with 6 samples.

Results

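The interferon-stimulated antiviral genes described here are a list of 38 mouse genes whose transcription rises when a cell receives interferon. Many of their products detect, bind or restrict viruses, while others act otherwise, such as Usp18, which dampens signalling, and Cxcl10, which attracts T cells. Regulatory factors of the Irf and Stat families and the guanylate-binding GTPases were left off the list. A probe with the symbol or the Entrez identifier of the gene was found for 36 of the 38 genes, of 19057 named genes with a probe. These 36 genes had 74 probes, and each gene was represented by its brightest probe. No probe was matched to Ifi44 or Ifi203. Of the 36 genes, 31 had a probe whose mean log2 intensity over the 6 arrays lay above the median of all probes, 7.48. These 31 genes were tested with all the other features above that limit, 15440 in number.

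The samples were cells sorted from mouse bone marrow by surface Ly6C, an antigen that is high on classical monocytes. Granulocytic progenitors (GP) were the Ly6C low fraction, and the Ly6C high fraction was named monocyte-like precursors of granulocytes (MLPG). Both groups had 3 replicates, each read on an Illumina bead array. Strain, sex, age and any treatment or tumour of the mice are not stated in the labels, and neither is whether the replicates came from separate animals. The p-values therefore cover the spread among these 6 samples alone, and some of that spread may be technical. Values are the deposited normalized intensities, on a linear scale that still holds the scanner background, so folds of dim probes are compressed towards 1. Mpo, the myeloperoxidase of neutrophil primary granules, measured 67052 ± 777 in GP and 68120 ± 2507 in MLPG (SD, n = 3 each). These values are near 71670, the top of the scale, so they show that both groups had the marker and not that the groups had it equally. Klf4, a monocyte transcription factor, measured 725 ± 273 in GP and 2498 ± 353 in MLPG, and Csf1r, the macrophage colony-stimulating factor receptor, 1020 ± 346 and 2115 ± 137. Both monocyte genes were thus higher in each MLPG sample than in any GP sample. Not every monocyte marker went this way. Lgals3 measured 32804 ± 4155 in GP and 24593 ± 3249 in MLPG, and Cybb 1121 ± 465 and 915 ± 271.

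Type I and type III interferons bind receptors that carry Janus kinases, which phosphorylate STAT proteins. A complex that holds STAT2 and IRF9 binds interferon-stimulated response elements in promoters, and gamma-activated sequences are another kind of element in the promoters of such genes. Many of the target genes also have a low level of transcription without infection, kept up by small amounts of interferon, and bone marrow progenitors are known to carry such a tonic signal.

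The response element was looked for in the promoters, because it is the sequence by which these genes are known to respond together. RefSeq promoter windows (build GRCm38.p6, 250 bases before to 50 bases after the annotated start) were matched by symbol for 30 of the 38 genes, in 37 windows. The element core, GAAA followed by any 2 bases and GAAA, on either strand, was present in 19 of the 37 windows (51.4%), against 1131 of all 32851 windows (3.44%). By gene, 18 of 30 genes had it (60.0%), against 1079 of 27025 (3.99%). The gamma-activated core TTCNNNGAA, which is its own reverse complement, was present in 9 of the 37 windows (24.3%), against 2726 of all windows (8.3%). Both cores can overlap in a window. Of the genes with a window, Oas3 and Rsad2 were tested members whose MLPG values all lay under their GP values. Oas1a and Oas1g are relatives of Oas3, Oasl2 is a relative without a match, and Isg15 is a much studied target with several matches. The 250 bases before the start of these 6 genes follow, 5′ to 3′ on the strand of the gene, with matches to the response element core in capitals.
Isg15: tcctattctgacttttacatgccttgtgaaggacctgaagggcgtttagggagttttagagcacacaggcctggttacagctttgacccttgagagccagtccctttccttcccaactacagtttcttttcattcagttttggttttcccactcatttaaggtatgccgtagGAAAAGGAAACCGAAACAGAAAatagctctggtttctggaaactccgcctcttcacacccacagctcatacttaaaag
Oas1a: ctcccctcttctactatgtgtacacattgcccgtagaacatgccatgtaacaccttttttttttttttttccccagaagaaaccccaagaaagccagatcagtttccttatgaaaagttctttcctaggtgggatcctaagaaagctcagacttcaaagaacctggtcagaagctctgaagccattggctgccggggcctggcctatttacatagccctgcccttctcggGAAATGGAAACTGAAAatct
Oas1g: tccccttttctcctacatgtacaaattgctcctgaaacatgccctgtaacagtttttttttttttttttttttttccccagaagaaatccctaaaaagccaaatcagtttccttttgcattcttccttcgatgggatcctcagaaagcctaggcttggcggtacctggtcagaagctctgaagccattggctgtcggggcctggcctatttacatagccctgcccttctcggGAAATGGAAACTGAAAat
Oas3: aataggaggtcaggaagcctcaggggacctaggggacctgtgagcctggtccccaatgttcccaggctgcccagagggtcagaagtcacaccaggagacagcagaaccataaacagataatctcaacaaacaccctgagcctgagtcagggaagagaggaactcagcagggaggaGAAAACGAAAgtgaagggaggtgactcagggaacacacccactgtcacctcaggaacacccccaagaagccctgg
Oasl2: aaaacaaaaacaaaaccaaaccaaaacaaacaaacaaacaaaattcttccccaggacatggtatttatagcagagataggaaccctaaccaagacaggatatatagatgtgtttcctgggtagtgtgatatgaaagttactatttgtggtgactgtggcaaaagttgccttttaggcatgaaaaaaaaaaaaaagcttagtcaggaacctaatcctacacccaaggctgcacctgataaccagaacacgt
Rsad2: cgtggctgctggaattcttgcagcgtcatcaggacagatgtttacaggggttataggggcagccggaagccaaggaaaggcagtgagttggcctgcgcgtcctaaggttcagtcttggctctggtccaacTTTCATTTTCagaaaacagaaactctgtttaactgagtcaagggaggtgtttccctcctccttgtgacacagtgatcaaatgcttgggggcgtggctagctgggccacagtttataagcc
These stretches lie at chr4:156200819-156201068 on the minus strand for Isg15, chr5:120907526-120907775 on the minus strand for Oas1a, and chr5:120887614-120887863 on the minus strand for Oas1g. The others lie at chr5:120777660-120777909 on the minus strand for Oas3, chr5:114896684-114896933 on the plus strand for Oasl2, and chr12:26456453-26456702 on the minus strand for Rsad2. Isg15 had 3 overlapping matches, starting 78, 72 and 66 bases before the start. Oas1a and Oas1g each had 2 overlapping matches within 20 bases of the start, and the capitals of both genes spell the same letters. Oas3 had a single match 75 bases before the start, and that of Rsad2, 120 bases before it, was on the opposite strand, so its capitals show the reverse complement. A match is a description of the letters and does not show that a factor binds.

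**Figure D1:**
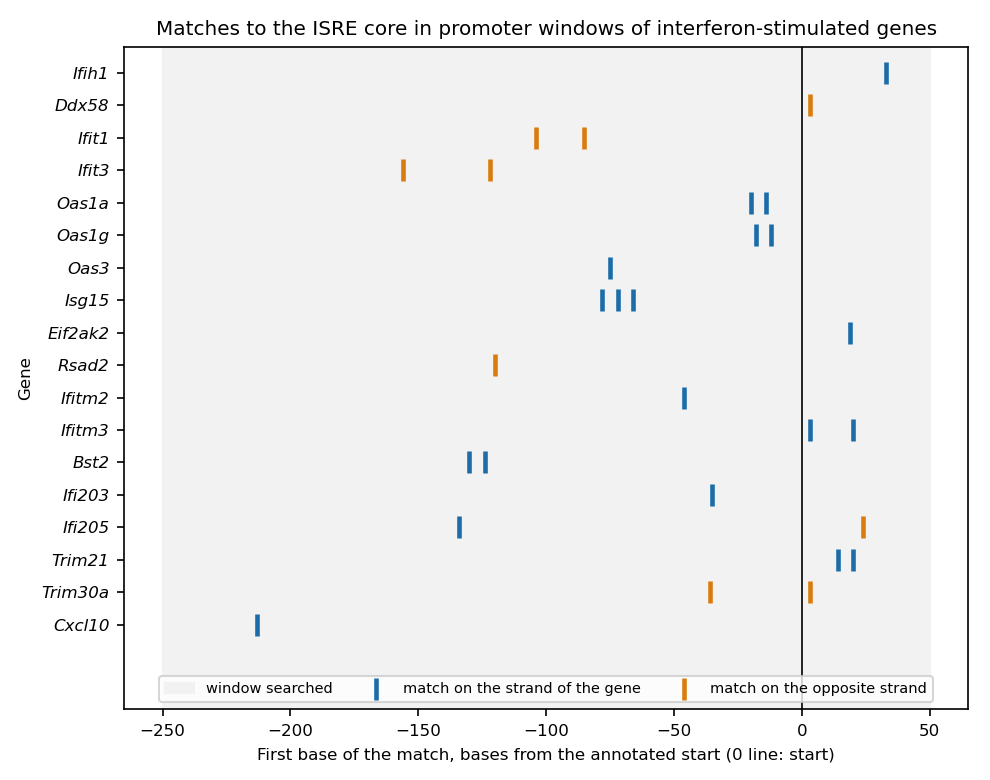
Positions of matches to the response element core in the promoter windows of the 18 genes that hold one, with the first base of each match on the horizontal axis in bases from the annotated start. Blue marks are on the strand of the gene and orange marks on the opposite strand. Matches lie on both sides of the start, and those of Isg15 begin 78, 72 and 66 bases before it.

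No member passed the test of MLPG against GP at a limma adjusted p under 0.05, against 79 of 15440 features (0.512%) in the whole comparison. The lowest adjusted p among the members was 0.202, for Rsad2. The log2 difference, MLPG minus GP, was below 0 for 22 of the 31 members, with a median of -0.11 and a range of -0.85 to 0.20. Over all features the median was 0.01, with 7451 of 15440 below 0. At an unadjusted p under 0.05, 3 members were lower in MLPG (Oas3, Rsad2 and Samhd1) and 0 were higher, against 7.42% of all features lower and 7.23% higher. The groups did not overlap for 2 members lower in MLPG, Oas3 and Rsad2, and for 0 higher, against 9.66% and 10.7% of all features. Such a share near the background is not a result about the members. The count of 79 rose to 348 when GP replicate 2 was left out, and it was 25 without GP replicate 3 and 2 or 3 without any 1 MLPG array. In bulk samples fewer cells of a type and less RNA per cell cannot be told apart.

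Arrays of equal replicate number varied together, and limma was also fitted with the replicate number as a block. In that fit 3 members were lower in MLPG, Oas2, Oas3 and Oasl2, against 400 features lower (2.59%), and 0 were higher. With the block, 7 members were lower at an unadjusted p under 0.05 and 0 higher, against 10.5% of all features lower and 10.7% higher. Within the pairs of equal number, 10 members were lower in MLPG in every pair, against 20.8% of all features. These were Isg15, Isg20, Oas2, Oas3, Oasl2, Rsad2, Ifitm1, Ifitm2, Ifitm3 and Eif2ak2. Only Mx1, Ifi47 and Cxcl10, 3 of the 31 members, were higher in MLPG in every pair, against 21.8% of all features. The calls with the block depended on pair 3: without it 0 members were called, against 3 without pair 1 and 7 without pair 2. Over all 15440 features, calls with the block were 6 without pair 3, 465 without pair 1 and 2056 without pair 2. This dependence was thus shared by the whole comparison.

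**Figure D2:**
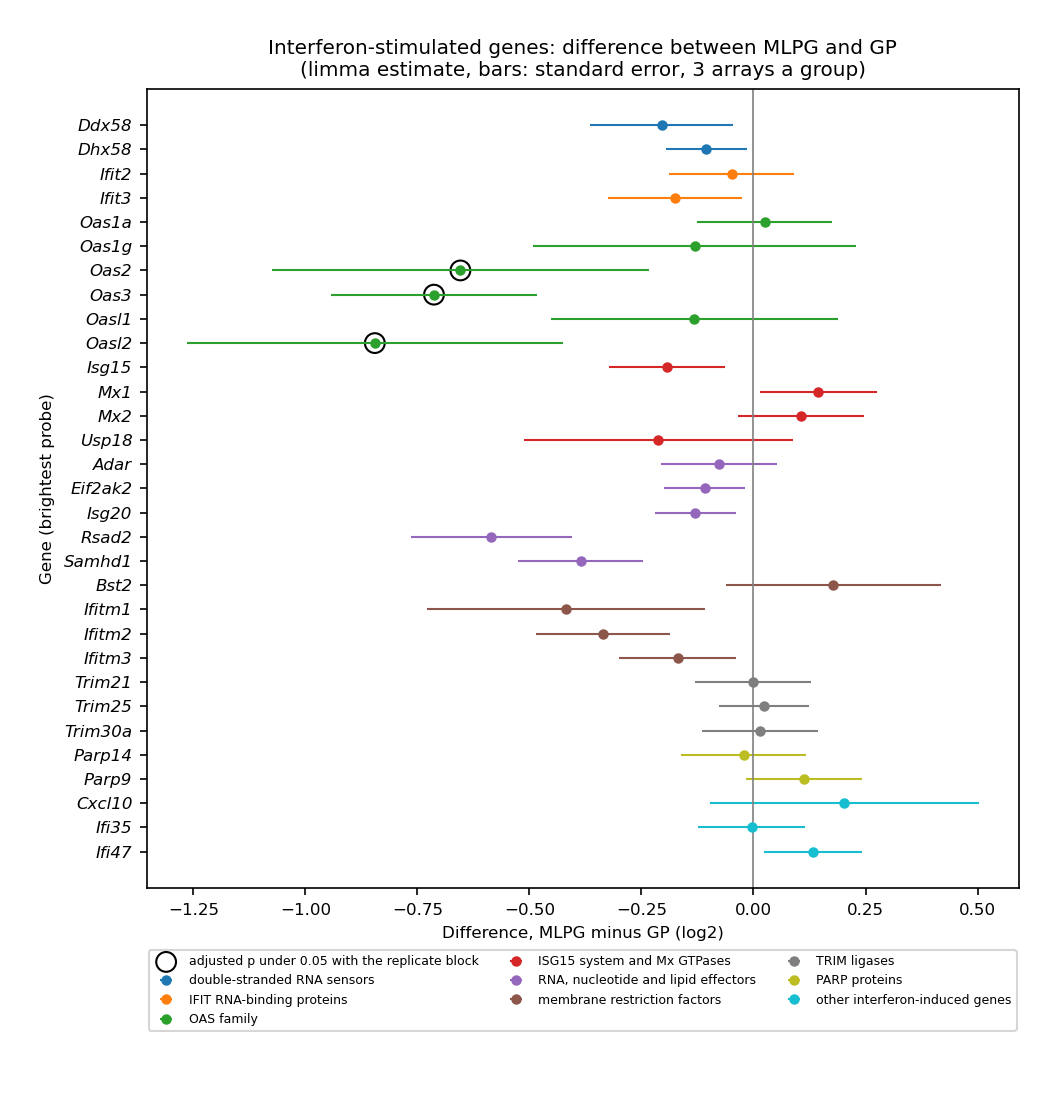
Log2 difference between MLPG and GP (horizontal axis, MLPG minus GP) for the 31 tested members, coloured by role, with the limma standard error as bars over 3 arrays a group. Circles mark Oas2, Oas3 and Oasl2, the members with an adjusted p under 0.05 once the replicate number is a block; the points range from -0.85 for Oasl2 to 0.20 for Cxcl10.

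Sensors of double-stranded RNA start the response in an infected cell. Ddx58 encodes RIG-I, which recognises viral RNA ends. Ddx58 measured 1228, 789 and 1107 in GP replicates 1 to 3 and 879, 842 and 945 in MLPG replicates 1 to 3. The MLPG values lay within the range of the GP values (log2 difference -0.21 ± 0.16 SE, adjusted p = 0.610). Dhx58, which encodes the RIG-I-like regulator LGP2, measured 1863, 1663 and 1791 in GP and 1623, 1691 and 1625 in MLPG (-0.11 ± 0.09, adjusted p = 0.629). The ranges of Dhx58 overlapped only through MLPG replicate 2. Ifih1, which encodes the long-RNA sensor MDA5, was below the limit on low values and was not tested, with means of 153 in GP and 159 in MLPG.

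By the brightest probe of each gene, the OAS family held the 3 largest differences of the list. With the mean of all kept probes Oasl2 differed by -0.51 and Ifitm1 by -0.84, so this order depends on the probe. OAS enzymes are activated by double-stranded RNA and make short adenylate chains that switch on the nuclease RNase L. Oas2, Oas3, Oas1g and Oas1a lie in a cluster on mouse chromosome 5, which also carries Oasl1 and Oasl2. Oas2 measured 1692, 732 and 2107 in GP replicates 1 to 3 and 962, 554 and 1257 in MLPG replicates 1 to 3. The groups overlapped, but within each pair of equal number the GP value was higher, by 1.76, 1.32 and 1.68 times. The log2 difference was -0.65 ± 0.42 (SE), a 1.57-fold higher geometric mean in GP, with an adjusted p of 0.524 without the block and 0.020 with it. Oas3 measured 287, 220 and 446 in GP and 194, 167 and 196 in MLPG, so every GP value lay above every MLPG value. Its difference was -0.71 ± 0.23, or 1.64-fold, with an adjusted p of 0.227, falling to 0.044 with the block. Another Oas3 probe, dimmer and below the limit on low values, differed by -0.00. Oasl2, a relative with synthetase activity in mouse, measured 1983, 1011 and 3425 in GP and 1231, 709 and 1357 in MLPG. In each pair GP was higher, by 1.61, 1.43 and 2.52 times, while the groups overlapped. This gave -0.85 ± 0.42, or 1.80-fold, with an adjusted p of 0.402, and 0.028 with the block. A second probe of Oasl2 above the limit differed by -0.18, with 210, 177 and 429 in GP and 192, 200 and 283 in MLPG. All 3 calls with the block held without pair 1 and without pair 2. They were lost without pair 3, where 6 of all 15440 features were called. Over all alternatives the adjusted p ran from 0.00070 to 0.802 for Oas2, from 0.0018 to 0.495 for Oas3 and from 0.00079 to 0.666 for Oasl2.

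The other family members had smaller differences between groups. Oas1g measured 1924, 1364 and 3402 in GP and 1717, 1369 and 2894 in MLPG (-0.13 ± 0.36, adjusted p = 0.909). Within each group the highest array was more than 2 times the lowest, a larger gap than that between the groups. A wide spread was also present for Oas2, Oas3 and Oasl2. Their highest GP array was 2.88, 2.03 and 3.39 times the lowest, against group folds of 1.57, 1.64 and 1.80. In MLPG the highest array was 2.27, 1.17 and 1.91 times the lowest. Oas1a, an active synthetase like Oas1g, was dim, with 204, 166 and 246 in GP and 201, 189 and 232 in MLPG (0.02 ± 0.15, adjusted p = 0.964). Oasl1, which is known to repress translation of Irf7 and lacks synthetase activity, measured 202, 298 and 461 in GP and 206, 263 and 390 in MLPG (-0.13 ± 0.32, adjusted p = 0.892). A second probe of Oasl1 above the limit differed by -0.21 and was highest in replicate 2 of both groups. All 6 genes were highest in replicate 3 in both groups, against 14.6% of all features. All 6 had the same order of the 3 replicates in both groups, against 25.0% of all features. The mean log2 intensity of the 6 genes was 9.35, 8.88 and 10.02 in GP replicates 1 to 3 and 8.98, 8.66 and 9.38 in MLPG, while the mean of all features stayed between 9.86 and 9.88.

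**Figure D3:**
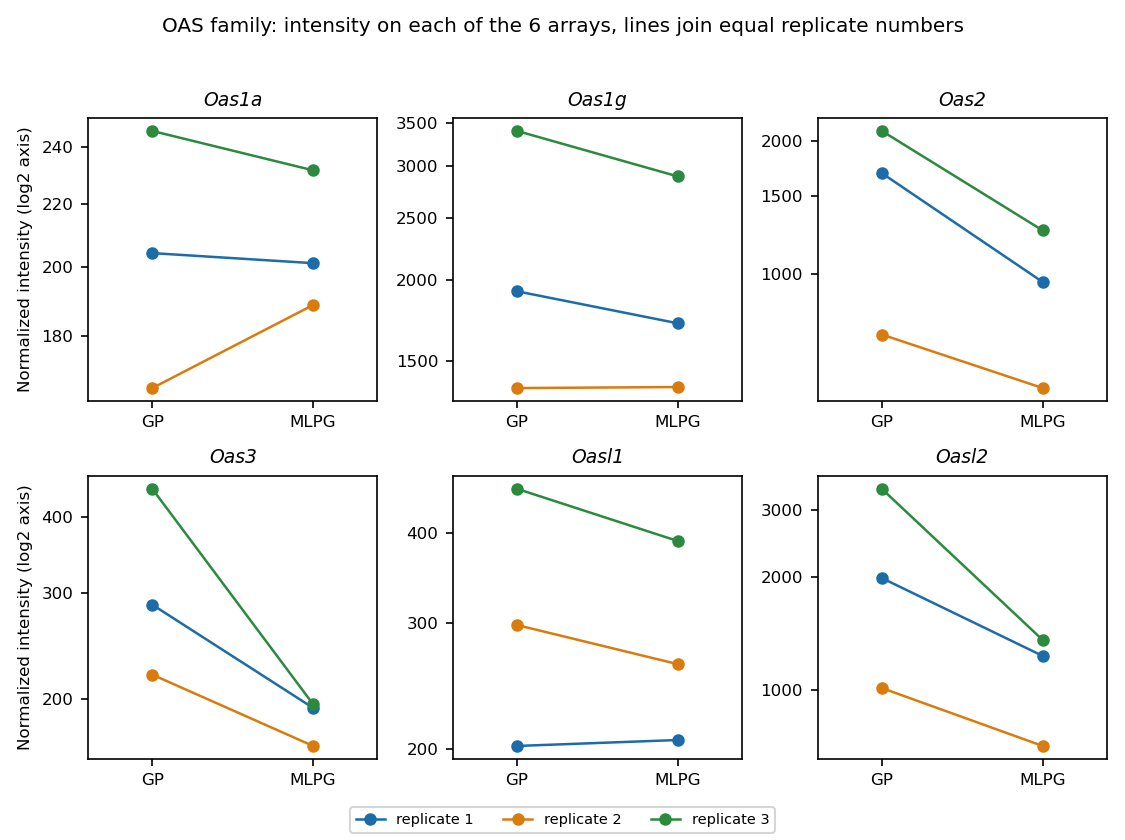
Normalized intensity of the 6 OAS family genes on each array, on log2 axes that differ between panels, with lines joining GP and MLPG arrays of equal replicate number. Replicate 3 (green) is the highest point of both groups in each panel, and for Oas2, Oas3 and Oasl2 all 3 lines fall from GP to MLPG.

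IFIT proteins bind viral RNA and block its translation. Ifit2 measured 3000, 2209 and 2097 in GP and 2340, 2299 and 2329 in MLPG (-0.05 ± 0.14, adjusted p = 0.911). Its MLPG values lay close together, with an SD of 21.3 against 492 in GP. Ifit3 measured 402, 284 and 373 in GP and 347, 290 and 294 in MLPG (-0.18 ± 0.15, adjusted p = 0.632), with both groups highest in replicate 1. Ifit1 was below the limit on low values, at 145, 131 and 139 in GP and 134, 121 and 120 in MLPG.

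Isg15 is a small ubiquitin-like protein that is attached to other proteins, and Usp18 removes it and also dampens signalling from the type I interferon receptor. Isg15 measured 367, 282 and 363 in GP and 318, 273 and 288 in MLPG (-0.19 ± 0.13, adjusted p = 0.533). It was lower in MLPG in every pair, and the groups overlapped. Usp18 measured 430, 229 and 483 in GP and 427, 239 and 300 in MLPG (-0.21 ± 0.30, adjusted p = 0.806), with replicate 2 lowest in both groups. Mx1 and Mx2 encode dynamin-like GTPases that trap viral ribonucleoproteins, and many inbred laboratory strains carry defective Mx alleles. Both lay just inside the limit on low values, at a mean log2 of 7.55 for Mx1 and 7.54 for Mx2. Mx1 measured 201, 176 and 158 in GP and 225, 200 and 169 in MLPG (0.14 ± 0.13, adjusted p = 0.678). Mx2 measured 151, 192 and 200 in GP and 177, 222 and 185 in MLPG (0.11 ± 0.14, adjusted p = 0.782). Just outside the limit were Ifi205 at 7.44 and Ifi204 at 7.37.

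Effectors that act on nucleic acids and nucleotides were led by Rsad2 and Samhd1. Rsad2 encodes viperin, a radical enzyme that makes a chain-terminating nucleotide. It measured 564, 386 and 556 in GP replicates 1 to 3 and 337, 382 and 278 in MLPG replicates 1 to 3. The groups did not overlap, although GP replicate 2 and MLPG replicate 2 stood 1.01 times apart, against 1.67 and 2.00 times in pairs 1 and 3. The difference was -0.58 ± 0.18 (SE), or 1.50-fold, with an adjusted p of 0.202, and 0.107 with the block. Without GP replicate 2 the difference was -0.76 and the adjusted p 0.046. Samhd1, which breaks down deoxynucleotides, measured 4226, 3387 and 4578 in GP and 3213, 3417 and 2675 in MLPG (-0.39 ± 0.14, 1.31-fold, adjusted p = 0.272, and 0.177 with the block). The overlap came from replicate 2, where both groups were at nearly the same value. A second probe of Samhd1 did not overlap between groups, at 1077, 727 and 994 in GP and 668, 557 and 441 in MLPG. In a fit with every kept probe as its own feature it differed by -0.75, with an adjusted p of 0.159, and 0.025 with the block. The dimmest Samhd1 probe differed by -0.23 and did not overlap either, at 232, 217 and 228 in GP and 192, 176 and 213 in MLPG. In the fit of single probes its adjusted p was 0.369, and 0.214 with the block.

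The remaining effectors differed little. Isg20, an exonuclease, measured 682, 597 and 638 in GP and 610, 542 and 599 in MLPG (-0.13 ± 0.09, adjusted p = 0.581). Eif2ak2 encodes PKR, the kinase that halts translation on double-stranded RNA, and measured 4065, 4395 and 4587 in GP and 3824, 4160 and 4104 in MLPG (-0.11 ± 0.09, adjusted p = 0.630). Both were lower in MLPG within every pair, by at most 1.12 times. Adar, which converts adenosine to inosine in double-stranded RNA, measured 2340, 1875 and 1915 in GP and 1763, 1818 and 2232 in MLPG, with its groups overlapping (-0.08 ± 0.13, adjusted p = 0.839).

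IFITM proteins sit in endosomal and surface membranes and hinder fusion of viral envelopes. Their genes lie beside each other on mouse chromosome 7. Ifitm1 had 5 probes above the limit, and all 5 were lower in MLPG. Its brightest probe measured 36134, 26958 and 57120 in GP and 24310, 22924 and 41853 in MLPG (-0.42 ± 0.31, 1.34-fold, adjusted p = 0.584, and 0.061 with the block). The groups of that probe overlapped, with replicate 3 highest in both. The second probe measured 12236, 11072 and 51395 in GP and 5271, 6858 and 22403 in MLPG, a 2.05-fold difference (-1.03, adjusted p = 0.546 in the fit of single probes, and 0.0041 with the block). On that probe replicate 3 of each group was more than 3 times the next. A further probe measured 469, 414 and 1575 in GP and 246, 303 and 806 in MLPG (-0.78, and 0.011 with the block). Another, at 435, 324 and 574 in GP and 247, 200 and 184 in MLPG, did not overlap between groups (-1.05, adjusted p = 0.081, and 0.014 with the block). Nor did the dimmest, at 359, 260 and 483 in GP and 184, 202 and 180 in MLPG (-0.92, adjusted p = 0.110, and 0.025 with the block). The brightest probe thus gave the smallest of the 5 differences, in values near the top of the scale.

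Ifitm2 measured 20833, 19663 and 26013 in GP and 14897, 17192 and 20689 in MLPG (-0.34 ± 0.15, adjusted p = 0.357, and 0.097 with the block). Every pair was lower in MLPG, and the groups overlapped through MLPG replicate 3. Ifitm3 measured 64122, 54680 and 68560 in GP and 55483, 47903 and 63691 in MLPG (-0.17 ± 0.13, adjusted p = 0.614), also near the top of the scale. Bst2, or tetherin, holds budding virions at the cell surface. It measured 501, 639 and 368 in GP and 426, 556 and 721 in MLPG (0.18 ± 0.24, adjusted p = 0.789). The replicate 3 arrays stood at opposite ends for Bst2, lowest in GP and highest in MLPG. Of the 53 member probes above the limit, 0 were called one by one and 8 with the block, against 0.459% and 4.06% of all 22640 kept probes. These 8 were 4 of Ifitm1, 1 of Samhd1 and the brightest ones of Oas2, Oas3 and Oasl2, all lower in MLPG. Of 13 members with several probes above the limit, 5 had probes of both signs (Adar, Dhx58, Oas1g, Parp9 and Parp14).

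**Figure D4:**
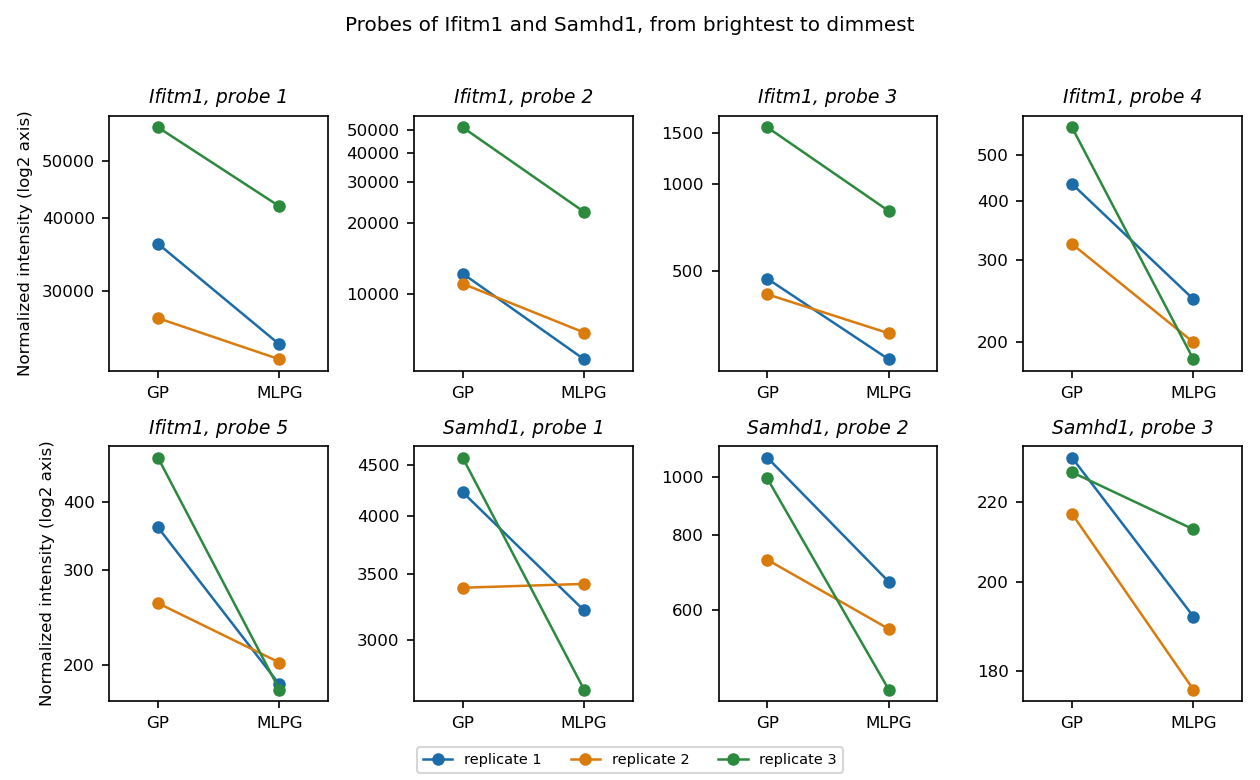
Normalized intensity of the 5 Ifitm1 probes and the 3 Samhd1 probes above the limit, on log2 axes that differ between panels, with lines joining arrays of equal replicate number. All lines of Ifitm1 fall from GP to MLPG, while for the brightest Samhd1 probe replicate 2 stays level, at 3387 and 3417.

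TRIM and PARP proteins of the response were close to level between the groups. Trim21 is a cytosolic antibody receptor and ubiquitin ligase, and measured 989, 735 and 888 in GP and 886, 772 and 942 in MLPG (-0.00 ± 0.13, adjusted p = 0.999). Trim25, a ligase known for its action on RIG-I signalling, measured 3095, 3383 and 3231 in GP and 2916, 3612 and 3372 in MLPG (0.02 ± 0.10, adjusted p = 0.945). Trim30a measured 2610, 2022 and 2472 in GP and 2281, 2202 and 2672 in MLPG (0.01 ± 0.13, adjusted p = 0.975). The groups of these 3 genes overlapped widely. Parp14, an ADP-ribosyltransferase, measured 1823, 1847 and 2441 in GP and 1854, 1876 and 2257 in MLPG (-0.02 ± 0.14, adjusted p = 0.966). Parp9, its relative, measured 272, 272 and 249 in GP and 275, 346 and 245 in MLPG (0.11 ± 0.13, adjusted p = 0.753), and a second probe above the limit differed by -0.10.

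Cxcl10, the chemokine that attracts T cells through CXCR3, had the highest difference of the list. It measured 610, 1167 and 733 in GP and 715, 1414 and 787 in MLPG (0.20 ± 0.30, a 1.15-fold higher geometric mean in MLPG with adjusted p = 0.816, or 0.243 once blocked). Replicate 2 was highest in both groups, unlike the OAS genes, for which it was lowest in 5 of 6. Ifi47, an interferon-induced GTPase, measured 2004, 1853 and 1905 in GP and 2389, 1876 and 2082 in MLPG (0.13 ± 0.11, adjusted p = 0.627). Ifi35 measured 426, 541 and 558 in GP and 503, 473 and 537 in MLPG (-0.00 ± 0.12, adjusted p = 0.993). Below the limit and untested, Xaf1 had means of 164 in GP and 155 in MLPG, Ifi204 of 167 and 166, and Ifi205 of 173 and 175. Ifi204 and Ifi205 encode nucleic acid binding proteins of the AIM2-like family.

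Arrays of a group stood further apart for these genes than for the median feature. The median within-group SD was 0.20 on the log2 scale for the 31 members and 0.13 for all features. An SD over 0.4 was found for 7 of the 31 members (22.6%), against 470 of 15440 features (3.04%). These were Oas1g, Oas2, Oasl1, Oasl2, Usp18, Cxcl10 and Ifitm1, with SDs from 0.51 to 0.72. The same replicate number was highest in both groups for 20 of the 31 members, against 6976 of 15440 features (45.2%). For 11 members that was replicate 3, for 6 replicate 1 and for 3 replicate 2, against 14.6%, 16.5% and 14.1% of all features. The mean log2 intensity of the 31 members was 10.28, 10.06 and 10.42 in GP replicates 1 to 3 and 10.07, 10.02 and 10.20 in MLPG. Replicate 2 was the lowest of both groups and replicate 3 the highest. Of 14 tested genes with the response element core in a window, 10 were below 0 in MLPG minus GP, with a median of -0.15. Of 10 tested genes with a window and no match, 8 were below 0, with a median of -0.10.

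**Figure D5:**
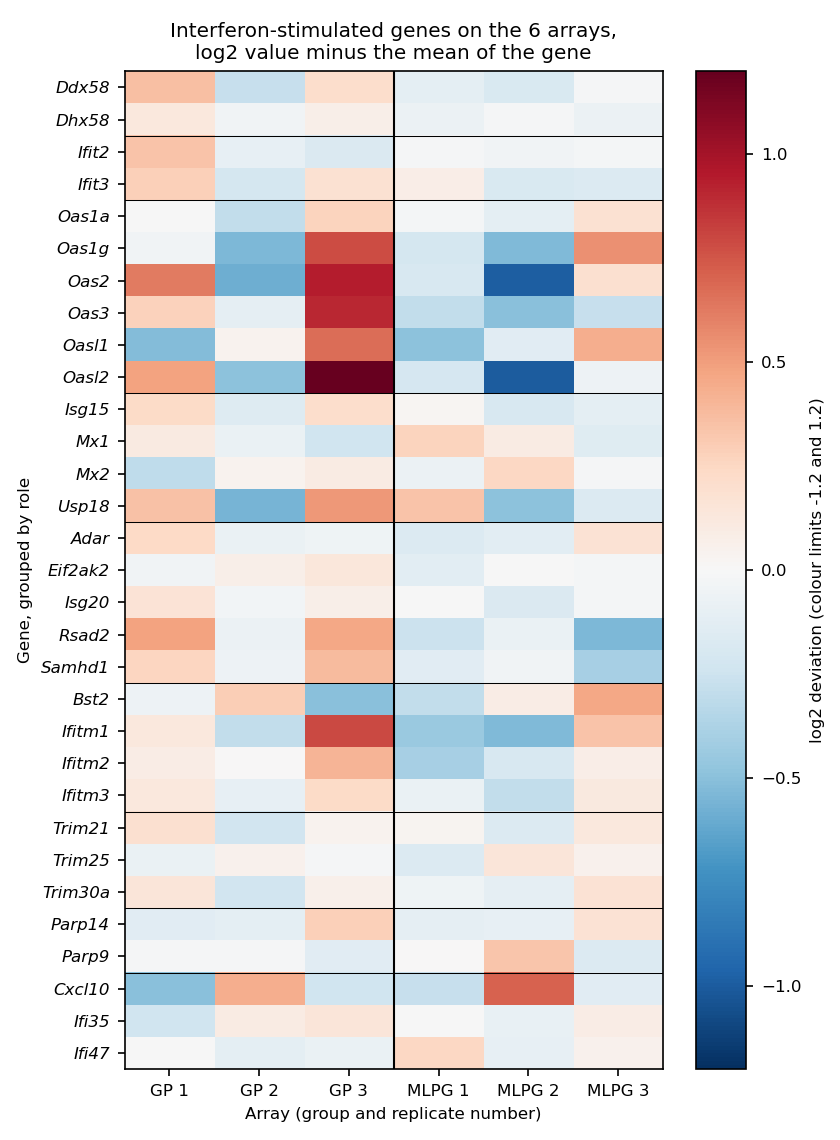
Log2 intensity of the 31 tested members on the 6 arrays (columns) minus the mean of each gene, with genes grouped by role and colours limited to -1.2 and 1.2. Red is above the mean of the gene and blue below it; the OAS rows and Ifitm1 are reddest in GP replicate 3, and Oas2 and Oasl2 are bluest in MLPG replicate 2.

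Other genes of interferon production, signalling and response were taken from lists of 138 genes, of which 124 had a probe and 96 were tested. None was called. At an unadjusted p under 0.05, 11 were lower and 11 higher, against 7.42% and 7.23% of all features. Their median difference was -0.03, with 53 of 96 below 0. The groups did not overlap for 14 lower and 15 higher in MLPG (14.6% and 15.6%), against 9.66% and 10.7% of all features. With the block, 5 were higher in MLPG (Irf5, Irf8, Aim2, Ifi30 and Tor3a), against 1.49% of all features, and 4 were lower (Ifnlr1, Helz2, Znfx1 and Mov10), against 2.59%. Without GP replicate 2 the count called without the block was 8, and without GP replicate 1 it was 2. The block count of 9 was 7 without pair 1, 24 without pair 2 and 0 without pair 3. Over all 15440 features, calls without the block were 348 without GP replicate 2 and 92 without GP replicate 1. With the block they were 465 without pair 1, 2056 without pair 2 and 6 without pair 3.

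Ifnlr1 encodes the chain of the interferon lambda receptor that pairs with Il10rb. It measured 6027, 3712 and 4891 in GP and 2866, 2311 and 2929 in MLPG, without overlap. The difference was -0.83 ± 0.18 (SE), 1.78-fold higher in GP, with an adjusted p of 0.109, and 0.0098 with the block. Its 2 dimmer probes differed by -0.70 and -0.13. Il10rb itself differed by -0.26 ± 0.16 (adjusted p = 0.499). Of the type I receptor, Ifnar1 was below the limit and Ifnar2 differed by -0.02 ± 0.13 (adjusted p = 0.959). The interferon gamma receptor chains differed by 0.21 ± 0.11 for Ifngr1 (adjusted p = 0.416) and by -0.35 ± 0.11 for Ifngr2 (adjusted p = 0.226), and neither overlapped between groups. The Janus kinases differed by -0.12 ± 0.11 for Jak1, 0.07 ± 0.10 for Jak2 and 0.17 ± 0.08 for Tyk2 (adjusted p = 0.658, 0.802 and 0.375). Tyk2 did not overlap between groups either, while Jak1 and Jak2 did.

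Among the transcription factors, Stat2 differed by -0.21 ± 0.16 (adjusted p = 0.595) and Irf9 by -0.15 ± 0.15 (adjusted p = 0.714). Irf7, which amplifies interferon production, measured 438, 318 and 504 in GP and 312, 256 and 258 in MLPG. Its groups did not overlap (-0.59 ± 0.17, adjusted p = 0.192, and 0.052 with the block). Irf5 and Irf8 went the other way. Irf5 measured 389, 855 and 719 in GP and 2061, 2216 and 1497 in MLPG (1.61 ± 0.28, adjusted p = 0.061, and 0.013 with the block). Irf8, a factor of monocyte development, measured 997, 3765 and 1461 in GP and 4646, 5969 and 4413 in MLPG (1.49 ± 0.42, adjusted p = 0.182, and 0.021 with the block).

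Aim2, a cytosolic DNA sensor, measured 485, 556 and 590 in GP and 776, 911 and 848 in MLPG, without overlap (0.64 ± 0.11, adjusted p = 0.056, and 0.014 with the block). Ifi30, a lysosomal thiol reductase of antigen processing, measured 1380, 2050 and 1930 in GP and 3624, 3414 and 2966 in MLPG (0.92 ± 0.16, adjusted p = 0.060, and 0.020 with the block). Helz2, a helicase and nuclear coactivator, measured 1019, 956 and 885 in GP and 574, 695 and 635 in MLPG (-0.59 ± 0.10, adjusted p = 0.063, and 0.026 with the block). None of the 3 overlapped between groups. Second probes above the limit differed by 0.22 for Aim2 and by 0.87 for Ifi30. Znfx1 and Mov10, both RNA helicases, were 1.43 and 1.39 times higher in GP (-0.52 ± 0.15, adjusted p = 0.185 and -0.48 ± 0.15, adjusted p = 0.214, with 0.028 and 0.030 under the block). A second Znfx1 probe above the limit differed by -0.10. Tor3a was 1.34 times higher in MLPG (0.43 ± 0.20, adjusted p = 0.372, and 0.040 with the block). Of the 21 interferon ligand genes listed, 20 had a probe and 5 were tested, with 0 called. Ifnb1 and Ifng were below the limit on low values.

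The groups also differed in markers of other marrow cells. The summed intensity of 19 late neutrophil markers was 425831 to 486017 in GP and 333185 to 366071 in MLPG. Of these, 18 were tested, with 5 lower in MLPG (8 with the block) and 0 higher. The sum holds Ltf, Ngp and Lcn2, which were near the top of the scale in both groups. The summed intensity of 18 classical monocyte markers was 80741 to 103408 in GP and 110691 to 136292 in MLPG. Of these, 16 were tested, with 1 higher (8 with the block) and 0 called lower. Lgals3 and Cybb of that list had log2 differences of -0.42 and -0.26. That of 9 eosinophil markers was 56916 to 133806 in GP and 4884 to 8014 in MLPG, with 5 of 7 lower (6 with the block). For 11 early neutrophil progenitor markers the ranges were 355970 to 374604 and 363849 to 391963, with 0 called with or without the block, in sums that rest on probes near the top of the scale. Erythroid markers, 10 in number, summed to 16871 to 23955 in GP and 14132 to 18175 in MLPG, with 0 of 9 called and 4 lower with the block (Hba-a1, Hbb-bt, Alas2 and Slc4a1). Plasmacytoid dendritic cells, a source of type I interferon with high levels of many interferon-stimulated genes, were looked for with 12 markers, whose sum was 5141 to 7954 in GP and 6133 to 6622 in MLPG. Of these, 9 were tested and 0 called, while with the block Siglech was lower in MLPG (log2 difference -0.65, adjusted p = 0.250 without the block and 0.024 with it), and Ccr9, Klk1 and Cd209d were below the limit. Macrophage markers summed to 36562 to 57629 in GP and 34442 to 44796 in MLPG, highest in GP replicate 1, where C1qb measured 1384 against 109 to 206 on the other 5 arrays. None of the 11 marker lists had its highest sum in replicate 3 of both groups. Such sums follow the brightest probes, such as Slc40a1 at 31610 and Vcam1 at 16293 of the macrophage sum of 57629 in GP replicate 1. They therefore cannot show whether the dimmer markers of a cell type were highest in replicate 3. Single markers were highest in replicate 3 of both groups, such as Cox6a2 of the plasmacytoid dendritic cell list, at 261, 736 and 826 in GP and 302, 298 and 1255 in MLPG. The part of late neutrophil, monocyte, eosinophil, erythroid and plasmacytoid dendritic cell content in the differences of the members, or in their order over the arrays, was not tested.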

How the data were processed

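Total RNA of sorted mouse bone marrow cells was biotin labelled and read on 6 Illumina bead arrays, 3 GP and 3 MLPG. The deposited intensity values are normalized by the authors and were used as given. Per the submitters' processing notes GenomeStudio was used, with no version given, and the normalization is not given in the sources used here. All 6 columns have a median of 179.3. The values of the whole table run from 88.2 to 71670, so the background is still in them. A second table was not used, because its 12 columns of values are headed by sample numbers that match no label. The planned test on log2 values was used.

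Symbols came from the platform annotation, where 34885 probes had 1 symbol, 18 several and 10378 none. Entrez identifiers of 34807 probes matched a mouse gene table, and 0 symbols changed. Probes with a mean log2 value above 7.48 were kept (22640 of 45281), which left 15440 features, 11348 of them named genes. Differences, MLPG minus GP, were fitted in limma 3.58.1 under R 4.3.3 (lmFit, eBayes, no covariate), with Benjamini-Hochberg adjustment over all features and a threshold of 0.05. The fit without the block was tested on simulated arrays drawn independently of each other. In the real data arrays of equal number varied together, so that test covers neither this pairing nor the fit with the block. The number of arrays limits the precision.

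Both groups use replicate numbers 1 to 3. Deviations from the group mean correlated at 0.38, 0.30 and 0.47 over 15440 features for arrays of equal number, so the number was taken to pair the arrays. No label states this pairing, which rests on the data. Values with the number as a block stand beside a result where they change its call.

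The members and the gene lists were chosen with earlier results of these data known. By the rule for named genes, the members to describe in full were, in each role, those called, those whose groups did not overlap and the brightest, and any member could be named. All 31 tested members are given with their values on each array. Of the pathway lists these were the called genes, those called with the block, the receptor chains and Janus kinases, Stat2, Irf7 and Irf9. Alternatives changed the filter, the probe choice, the normalization, the background, array weights, the spread model, the block and the replicates used.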

Additional observations from a re-analysis of the deposited data

How the results depend on the processing

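The median difference of the 31 members stayed below 0 under every alternative run, between -0.06 and -0.14 without 1 array or pair. The 79 features called became 146 with no filter, 220 with array quality weights and 630 with the replicate block. Leaving out 1 array gave 2 to 348 calls, and leaving out 1 pair in the fit with the block 6 to 2056. The 0 members called became 3 with the replicate block, 0 or 1 (Rsad2) without 1 array and 0 to 7 without 1 pair under the block. The 0 pathway genes called became 4 with no filter, 5 with array quality weights, 1 with an intensity trend and robust eBayes, 9 with the replicate block, 0 to 8 without 1 array and 0 to 24 without 1 pair under the block. The cause of these shifts was not tested.

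Of the 31 members, 16 kept the sign of their difference under all alternatives run, and 15 did not, with a reported size of at most 0.21. With 1 array or pair left out, the difference of these 15 ran from -0.15 to 0.11 for Ifit2, -0.12 to 0.16 for Oas1a, -0.44 to 0.23 for Oas1g, -0.42 to 0.17 for Oasl1 and -0.019 to 0.22 for Mx2. It ran from -0.54 to 0.027 for Usp18, -0.13 to 0.091 for Ifi35, -0.10 to 0.47 for Cxcl10, -0.096 to 0.12 for Trim30a and -0.12 to 0.097 for Trim21. It ran from -0.045 to 0.11 for Trim25, -0.22 to 0.39 for Bst2, -0.025 to 0.23 for Parp9, -0.11 to 0.12 for Parp14 and -0.23 to 0.088 for Adar. Array quality weights turned the sign of Ifit2 (0.04), Oas1a (-0.078), Trim30a (-0.012), Trim21 (0.0028) and Trim25 (-0.0087). Cyclic loess turned Trim30a (-0.0002), and the mean of the kept probes turned Adar (0.0044). The second-brightest kept probe, an alternative chosen after seeing the data, turned Oas1g (0.019) and Parp9 (-0.10). Dim probes near the limit, such as Mx1, Mx2 and Oas1a, have little room to differ above the background that remains in the values.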

Other observations

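Among 56 further interferon-stimulated genes tested, the same replicate number was highest in both groups for 29 (51.8%), against 45.2% of all features. For 15 it was replicate 3 (26.8%), against 14.6% of all features. Ifi27l2a, a gene that interferon induces strongly, was named after its values were seen. It measured 1233, 602 and 1237 in GP replicates 1 to 3 and 1825, 472 and 373 in MLPG replicates 1 to 3. The highest and the lowest value were both MLPG arrays, and the difference did not pass the test (log2 difference -0.50 ± 0.57 SE, limma adjusted p = 0.739). Ly6e, an interferon-induced surface protein gene of the same family as the sort antigen, was also named after its values were seen, at 15554, 25386 and 30961 in GP and 34063, 33047 and 40412 in MLPG. Every MLPG value lay above every GP value (0.63 ± 0.23, adjusted p = 0.271, and 0.066 with the replicate block).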
